A study of Drosophila melanogaster with 266 samples.

Results

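The Rab genes of the fruit fly, Drosophila melanogaster, were described across cell types of the adult fly, most of them in the visual system and the others in the mushroom body, the central complex and muscle. A gene was a member if its symbol was Rab or RabX followed by a number, with or without trailing letters. The rule found 33 members among 13931 coding genes, and the mixture model of the study covered all 33 among its 12377 genes.

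The study labelled nuclei of genetically marked cells with the nuclear envelope tag UNC84-2XGFP, captured them from frozen heads with antibody beads and sequenced their RNA. Capture used 1 round of beads (INTACT) or 2 sequential rounds (TAPIN). The values described here came from 167 libraries of 67 single cell types that passed quality control, 127 made with TAPIN and 40 with INTACT, at 2 to 6 libraries a cell type. The 67 types comprised 4 photoreceptor types (R1-6, R7, R8_Rh5, R8_Rh6), 3 glial types (Glia_Eg, Glia_Mg, Glia_Psg), 2 muscle types (Muscles_App, Muscles_Head) and 58 other neuronal types, among them 4 Kenyon cell types and the 5 lamina monopolar types L1 to L5. All groups were adults of 4 to 7 days with no treatment named, carrying a split-GAL4 or GAL4 driver for the cell type and the tag under UAS control (10XUAS in most, 5XUAS in muscle). Sexes were not sorted for the TAPIN libraries. A driver limits each group, because it can mark other cells. The study lists retinal pigment cells in the Dm1 and Tm20 drivers, on the basis of expression data, some T1 cells in the Tm20 driver, further photoreceptors in that of R7, ocellar photoreceptors in those of Glia_Eg, non-muscle cells in the muscle drivers, and in PB_3 more optic lobe cells than target cells. Muscles_App was captured from appendages.

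Levels are given in TPM, the abundance of a gene's transcripts scaled by their length and set to the same total over coding genes in every library, so that levels of different genes can be set side by side. Read depth was unknown in this unit. The libraries detected 8642 to 13221 coding genes, with a median of 10610. The summed level of 10 photoreceptor markers was 23453 to 81261 TPM in photoreceptors and at most 4354 TPM in other neurons, and that of 6 glial markers was 5062 to 8748 TPM in glia and 26.3 to 4597 TPM in other neurons. The highest neuronal value of the glial list was in PAM_4. The summed level of 8 muscle markers was 2153 and 5222 TPM in the muscle types, but 5028 TPM in the neuronal type LC10b. The muscle types also held 2462 and 2768 TPM of glial markers and 2912 and 5251 TPM of the 6 neuronal markers. Fewer cells of a type and less RNA a cell cannot be told apart in these bulk libraries.

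Rab proteins are small GTPases that switch between a GDP-bound and a GTP-bound state and mark the membranes of the secretory and endocytic pathways. Exchange factors load a Rab with GTP, effectors bind the active form to tether, move or fuse vesicles, and GTPase-activating proteins (GAPs) turn it off. In neurons, Rab3 sits on synaptic vesicles, Rab1, Rab2 and Rab6 act between endoplasmic reticulum and Golgi, Rab5 and Rab7 mark early and late endosomes, and Rab4, Rab11 and Rab35 act in recycling.

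The Rab genes ranged from members called on in all 67 cell types (Rab1, Rab8, Rab14, Rab32 and Rab39) to RabX5, called on in 2. The model of the study gives the probability that a gene is on in a cell type. A gene was called on at 0.8 or more and off at 0.2 or less. The 5 members on in all 67 are those fitted with a single component. Such a fit gives 1 probability a gene, so these calls could not differ between cell types. By these calls 14 of 33 members (42.4%) were on in at least 60 of the 67 cell types, compared with 22.2% of all modelled genes. Another 10 members (30.3%) were on in fewer than 30 cell types, compared with 48.3% of all modelled genes. No member was off throughout. The median member reached 77.5 TPM in its median cell type, and the median modelled gene 10.8 TPM. The members had a median SD over cell types of 0.76 on the log2(TPM + 1) scale against 0.97 for all modelled genes. Rab9D did not pass the abundance filter of 10 TPM. The other 32 members differed among the 67 cell types by more than the spread between libraries of a type (limma F test, adjusted p under 0.05), as did 98.3% of all 11550 genes tested.

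**Figure D1:**
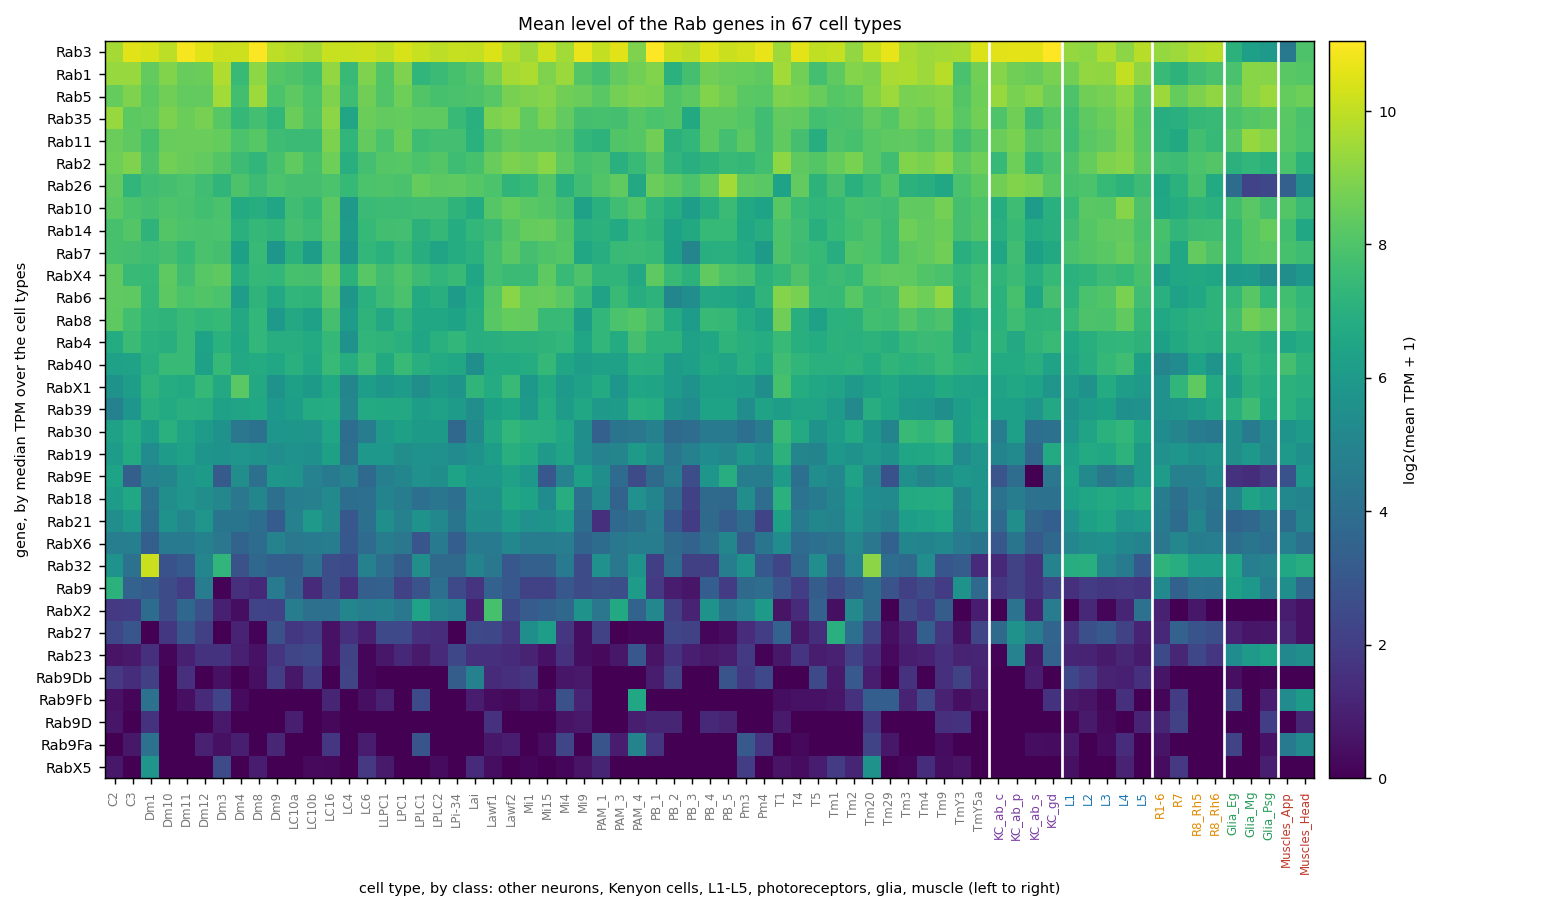
Mean level of each Rab gene (rows, ordered by median TPM) in 67 cell types (columns, grouped by class and coloured by class), as log2(mean TPM + 1). Rab3 is at the top in nearly all neurons and low in the 3 glial and 2 muscle columns. Rows from Rab9 downward have medians of 5.615 TPM or less.

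Rab3 was the most abundant member in most cells. Its mean exceeded that of every other member in 53 of the 67 cell types, with Rab1 first in 7, Rab5 in 6 and Rab11 in 1. The 7 types with Rab1 first (L2, L4, Mi1, T1, Tm3, Tm4 and Tm9) had INTACT libraries only. In the protocol comparison below, Rab3 was lower with INTACT (difference -0.96). The part of protocol in this order was not tested. Rab3 reached a median of 1039 TPM over the 67 cell types, from 21.4 TPM in Muscles_App to 2125 TPM in the Kenyon cells KC_gd. It was followed by the housekeeping members Rab1 (median 406 TPM), Rab5 (393 TPM), Rab35 (294 TPM), Rab11 (286 TPM) and Rab2 (270 TPM). The lowest cell type of Rab1 was PB_2 at 132 TPM and the lowest of Rab5 was LC4 at 194 TPM, so neither fell near 0 in any cell type. Rab10 (median 200 TPM), Rab14 (193 TPM), Rab8 (158 TPM) and Rab4 (129 TPM), which act in exocytic and recycling traffic, were at 48.4 TPM or more in each of the 67 cell types. Rab6 had a median of 172 TPM and was called off in 4 cell types, with the lowest level in PB_2 (33.0 TPM).

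The summed level of the 33 members ranged from 2830 ± 156 TPM (SD, n = 2 libraries) in LC4 to 7144 ± 293 TPM (n = 2) in Tm9. L4 came next at 7059 ± 63.8 TPM (n = 2), then Lawf2 at 6685 ± 214 TPM (n = 2) and Tm3 at 6520 ± 130 TPM (n = 2). Tm9 and L4 did not differ beyond their spread. At the lower end, PB_3 had 2903 ± 60.5 TPM (n = 2), within the spread of LC4, and R7 had 3060 ± 24.4 TPM (n = 2). Photoreceptors as a class summed to 3060 to 4252 TPM, and 58 other neuronal types to a median of 5133 TPM, with LC4 and Tm9 as the extremes. In LC4, Rab3 alone made up 39.1% of the sum, and in Tm9 only 10.1%. Tm9, L4, Lawf2 and Tm3 had INTACT libraries only, and LC4, PB_3 and R7 TAPIN libraries only. The part of protocol in these sums and shares was not tested. LC4 had the lowest level of Rab5, RabX1, Rab4 (48.4 TPM), Rab10 (61.5 TPM), Rab14 (68.6 TPM) and Rab35 (90.9 TPM), and the highest summed level of neuronal markers (39827 TPM).

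Calls of the model and levels did not always go together. RabX1 was called on in only 3 cell types, R8_Rh5 (315 ± 56.7 TPM, n = 2), Dm4 (297 ± 120 TPM, n = 4) and T1 (225 ± 15.5 TPM, n = 2), yet it was above 10 TPM in all 67, with a median of 80.9 TPM and a minimum of 33.0 TPM in LC4. The component the model fitted as off for RabX1 was centered on 80.6 TPM and the on component on 287 TPM. The off component of Rab11 was at 156 TPM, that of Rab35 at 133 TPM, that of Rab10 at 93.7 TPM, that of Rab7 at 71.5 TPM and that of RabX4 at 64.7 TPM. These 5 members were called on in 46 to 56 cell types and exceeded 10 TPM in 67. An off call for these members therefore stands for a lower level, not for a level near 0. Rab30, a Golgi member, was called on in 48 cell types and exceeded 10 TPM in 66. Rab21 (on in 58) and RabX6 (on in 59), with medians of 29.9 and 21.5 TPM, had off components of 2.97 and 3.82 TPM. Rab32 went the other way. The model fitted it with a single component called on in all 67 cell types, although only 43 of them had at least 10 TPM and KC_ab_c had 1.34 TPM.

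**Figure D2:**
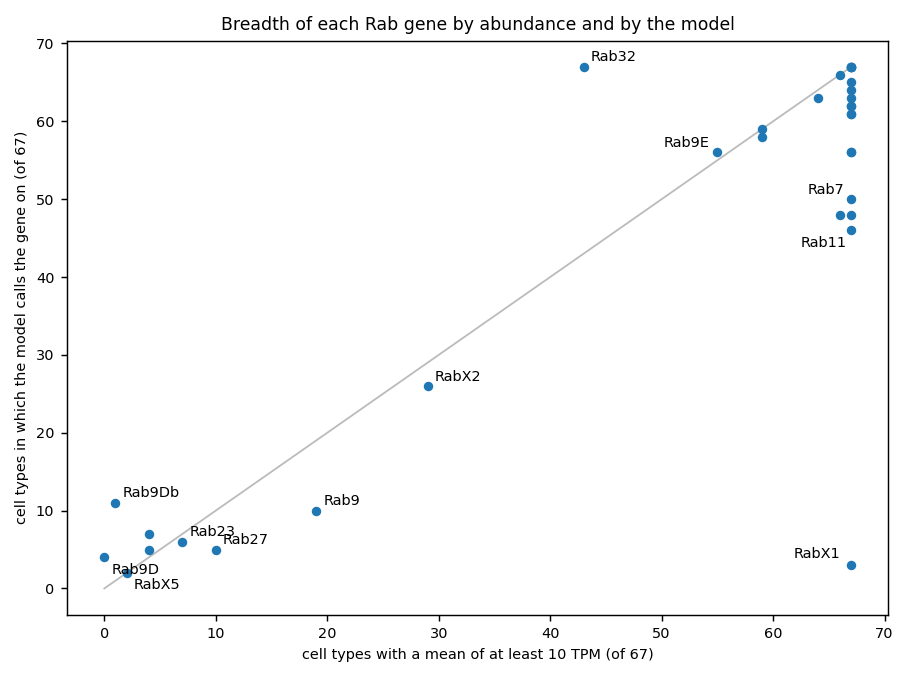
Number of cell types in which each of the 33 Rab genes had a mean of at least 10 TPM (x axis) against the number in which the model called it on (y axis); 1 point a gene, line of equal numbers in grey. RabX1, at 67 and 3, and Rab32, at 43 and 67, lie farthest from the line.

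Among the restricted members, RabX2 varied most, with an SD over cell types of 2.02 on the log2 scale. It was called on in 26 cell types and off in 37. Its highest level was in the lamina wide-field neuron Lawf1, where the 4 libraries had 111, 123, 283 and 399 TPM. The lower pair came from driver d1 with INTACT and the higher pair from driver d2 with TAPIN, so driver and protocol cannot be told apart. Next were PAM_3 (105 ± 26.3 TPM, n = 2), LPLC1 (82.3 ± 65.7 TPM, n = 2) and Pm4 (64.2 ± 3.74 TPM, n = 2). LPLC1 did not differ from either neighbor beyond its spread. RabX2 was listed at 0 in all 12 glial libraries and in every library of L1, KC_ab_c, R7, R8_Rh6, Tm29 and TmY3. In 4 control captures made with INTACT, on beads without a driver or with another antibody, RabX2 had 30.2 to 62.0 TPM, and in the other control libraries at most 3.83 TPM. The gene lies on chromosome X at 10417429 to 10418219, plus strand, in assembly dm6, within the bounds of CG32683 (10410391 to 10454895, minus strand), with no exon overlap in the annotation used. The genes with the pattern most like RabX2 over the 67 cell types were CG32683 (Pearson r = 0.91), CG12640 (r = 0.88), which also lies within those bounds at 10432465 to 10432812, and CG11030 (r = 0.60) on chromosome arm 2L. These correlations describe the same libraries. No source used here states that reads were assigned by strand, in which case nuclear reads from a gene and from an opposite-strand neighbor cannot be told apart.

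Rab27, which acts in the docking of secretory vesicles in mammals, was on in 5 cell types and off in 61. It was highest in the medulla neuron Tm1, where both libraries (119 and 138 TPM) exceeded all libraries of other types that passed. The 4 libraries of Mi15 had 37.5, 41.3, 102 and 104 TPM, the lower pair from driver d1 and the higher from d2. KC_ab_p had 49.9 ± 28.8 TPM (n = 2), Mi1 44.9 ± 0.08 TPM (n = 2) and KC_ab_s 24.0 ± 15.1 TPM (n = 2), the rest of the types called on. The median over the 67 cell types was 2.46 TPM. Control libraries of the Tm1 driver bear on Rab27 directly. In nuclei before capture, labelled input, Rab27 was at 2.83 and 6.80 TPM, and after the first capture at 110 and 137 TPM. The mock and bead controls had at most 6.70 TPM. The genes most like Rab27 were Torsin (r = 0.60), Mef2 (r = 0.58) and ebd2 (r = 0.57).

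Rab32, which is needed for eye pigment granules in flies, was by far highest in Dm1 (1142 ± 8.49 TPM, n = 2) and Tm20 (558 ± 50.1 TPM, n = 2). The next levels were 154 TPM in Dm3 and 145 TPM in R1-6. RabX5 had the same pair of high cell types, with 53.1 ± 17.2 TPM in Dm1 and 49.3 ± 3.32 TPM in Tm20 (n = 2 each), and was called on in these 2 cell types only. The next level of RabX5 was 4.77 TPM in Dm3, and its median was 0 TPM. The study lists pigment cells for both drivers. It names lz, Pdh and bw as genes found only in these 2 lines, and proposes pigment cells as their source. Of the 5 pigment cell markers, Pdh, a retinol dehydrogenase, was also highest in Dm1 (1395 TPM) and Tm20 (502 TPM), whereas st had 16.5 TPM in Dm1 and 7.08 TPM in Tm20, and cn 0.69 and 0.84 TPM. The summed level of the 5 markers was 1736 TPM in Dm1, 923 TPM in Tm20, 182 to 1736 TPM over the neuronal types and 1978 TPM in Muscles_App. Markers at 10 TPM or more numbered 3 in Dm1, 2 in Tm20, 1 to 3 over the neuronal types and 1 in Muscles_App. A high sum of this list can therefore rest on 1 gene and does not by itself measure pigment cells. The list does not include lz and bw. The part of pigment cells in the Rab32 and RabX5 levels of these 2 types was not tested. In the Tm1 control libraries, Rab32 was at 276 and 284 TPM in the input, at 35.1 and 37.3 TPM after the first capture and at 398 and 465.8 TPM in the first mock capture. RabX5 had 37.6 and 53.8 TPM in the first mock capture and 31.5 and 273 TPM in the other-antibody control. This range includes the levels of Dm1 and Tm20. Both controls had 1 round of capture, whereas the Dm1 and Tm20 libraries had 2 (TAPIN). The median of RabX5 over the 16 control libraries was 1.06 TPM. The genes most like Rab32 were CAH2 (r = 0.81), highest in Tm20, and santa-maria (r = 0.77) and so (r = 0.76), both highest in Dm1.

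The X-linked members of the Rab9D, Rab9E and Rab9F group lie in 1 region of the chromosome, from Rab9D at 10589089 to 10589985 to Rab9Fb at 10951609 to 10952486 (dm6). Reads that fit several of them are divided by the quantification, so the level of each is uncertain. Rab9E was the only widely expressed one, on in 56 cell types with a median of 32.9 TPM and highest in PB_5 (116 ± 25.3 TPM, n = 2). Rab9D never exceeded 3.60 TPM (R7) and Rab9Db exceeded 10 TPM in Lai alone (27.9 TPM), and both failed the abundance filter of every comparison below. Rab9Db was called on in 11 cell types and Rab9D in 4, mostly at levels under 10 TPM. Rab9Fa was on in 7 cell types and Rab9Fb in 5, with medians of 0 and 0.36 TPM. Both were highest in the muscle types and in PAM_4, where Rab9Fb had 97.3 ± 57.7 TPM and Rab9Fa 29.6 ± 19.8 TPM (n = 2 each). Rab9 itself, on chromosome arm 2L, was on in 10 cell types. The centrifugal neuron C2 had the highest level of Rab9, with 128 and 145 TPM in its libraries, followed by Glia_Eg (76.7 ± 16.5 TPM, n = 6) and PAM_4 (65.2 ± 37.7 TPM, n = 2).

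Glia were compared with the 58 neuronal types to ask which Rab genes set neurons apart from glia. All glial and muscle libraries were made with TAPIN, whereas some neuronal types had INTACT libraries only. Cell types were the units, as means of log2(TPM + 1), and limma's moderated test was adjusted over all 9998 genes tested. Of 31 members tested, 4 were higher and 6 lower, at a threshold of 0.05 on the adjusted p. Among all genes tested 12.2% were called higher and 12.8% lower, 24.9% in all, and among the members 32.3%. The median difference of the members was 0.09 on the log2 scale, and that of all genes -0.17.

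Rab26, Rab3 and RabX4 were lower in glia, without overlap with neurons, whereas Rab27 was not called (-1.34, adjusted p = 0.32). The share of all genes without overlap between glia and neurons was not determined. Rab26, which is linked to synaptic vesicles and autophagy in mammals, was at 13.9 ± 7.12 TPM in Glia_Eg (n = 6), 3.70 ± 2.06 TPM in Glia_Mg (n = 2) and 4.22 ± 2.39 TPM in Glia_Psg (n = 4). In neurons Rab26 had a minimum of 85.1 TPM (T1), a median of 240 TPM and a maximum of 740 TPM (PB_5), so the groups did not overlap. The log2 difference was -5.09 ± 0.36 (SE, adjusted p = 9.0e-19). Rab3 was at 136 ± 23.6 TPM in Glia_Eg, 75.5 ± 2.68 TPM in Glia_Mg and 59.95 ± 31.8 TPM in Glia_Psg, against 486 TPM (PAM_4), 1115 TPM and 2125 TPM as the lowest, median and highest neuronal type. These groups also did not overlap, and the difference of Rab3 was -3.71 ± 0.31 (adjusted p = 3.7e-16). RabX4 was called off in all 3 glial types (66.0 TPM or less) and had at least 92.3 TPM in each neuronal type (difference -1.79 ± 0.28, adjusted p = 3.4e-07). RabX4 shares exon sequence with Kaz on the same strand, so its reads may be divided with that gene.

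Rab9E was near 0 in glia (1.71 to 2.59 TPM) and had a neuronal median of 33.3 TPM, although KC_ab_s was at 0 in both libraries (difference -3.73 ± 0.77, adjusted p = 8.0e-05). RabX2 was lower by the fit (-2.97 ± 1.10, adjusted p = 0.038), as it was at 0 in glia. The neuronal types also reached 0 and overlapped the glia. Rab2, which acts at the Golgi and in lysosome delivery, was at 137 to 157 TPM in glia and had a neuronal median of 278 TPM (difference -1.03 ± 0.35, adjusted p = 0.024), with overlapping groups.

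Of the members higher in glia, Rab23 had the largest difference. It was not particular to glia, with 34.4 TPM in Muscles_App and 44.6 TPM in Muscles_Head. Rab23 acts in planar cell polarity in flies and in Hedgehog signaling in mammals. It had 40.8 ± 15.2 TPM in Glia_Eg (n = 6), 61.5 ± 8.72 TPM in Glia_Mg (n = 2) and 78.9 ± 36.0 TPM in Glia_Psg (n = 4). The neuronal median was 1.09 TPM and the highest neuronal type, KC_ab_p, had 28.6 ± 7.32 TPM (n = 2), which is below each glial mean. The difference was 4.67 ± 0.47 (adjusted p = 1.2e-12). Rab9 was also higher (24.6 to 76.7 TPM in glia, neuronal median 4.73 TPM, difference 3.02 ± 0.74, adjusted p = 0.0010), although C2 exceeded the 3 glial types. Rab39, linked to lysosomes and autophagy in mammals, was at 103 to 194 TPM in glia and 76.0 TPM in the median neuron (difference 0.92 ± 0.31, adjusted p = 0.023). Rab11 was at 297 to 641 TPM against 287 TPM (difference 0.81 ± 0.29, adjusted p = 0.031), and its highest cell types were Glia_Mg and Glia_Psg. Calls for Rab3, Rab9, Rab9E, Rab23, Rab26 and RabX4 held in each of the 10 alternatives, including every removal of 1 glial type. Without Glia_Mg, 6 members were called, and Rab11 and Rab39 were not (adjusted p = 0.32 and 0.28). The summed level of 6 neuronal markers was 1873 to 2276 TPM in the glial types and 2994 to 39827 TPM in neurons. The part of neuronal RNA in the glial values was not tested.

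Muscle was compared with the same 58 neuronal types. Because the glia and muscle comparisons share these neurons, their results are not independent. Of 31 members tested, 3 were higher and 3 lower, against 14.5% and 8.11% (22.6% in either direction) of 10119 genes. The share of members called was 19.4%. The lower members were Rab3 (21.4 ± 5.84 TPM in Muscles_App and 248 ± 43.4 TPM in Muscles_Head, n = 2 each, difference -3.87 ± 0.43, adjusted p = 5.5e-11), Rab26 and RabX4. Rab26 was at 9.34 ± 0.71 TPM in Muscles_App and 43.2 ± 17.8 TPM in Muscles_Head (difference -3.45 ± 0.45, adjusted p = 6.1e-09). RabX4 was at 43.4 ± 12.1 and 58.9 ± 2.44 TPM (difference -1.95 ± 0.34, adjusted p = 5.5e-06). None of these 3 overlapped the neurons, and neither did Rab23, described next. The share of all genes without overlap between muscle and neurons was not determined.

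The higher members in muscle were Rab23 (34.4 ± 0.93 TPM in Muscles_App and 44.6 ± 6.93 TPM in Muscles_Head, difference 4.19 ± 0.58, adjusted p = 2.9e-08), Rab9Fb and Rab9Fa. Rab9Fb was at 39.1 ± 0.41 and 64.9 ± 1.61 TPM with a neuronal median of 0.35 TPM (difference 4.99 ± 0.81, adjusted p = 1.2e-06). Rab9Fa was at 21.96 ± 4.87 and 37.4 ± 19.6 TPM with a neuronal median of 0 TPM (difference 4.23 ± 0.72, adjusted p = 3.3e-06). PAM_4 exceeded both muscle types for Rab9Fb and lay between them for Rab9Fa. The 6 calls held in each of the 9 alternatives, including those without PAM_4 and without either muscle type. The glial and neuronal markers in the muscle libraries were given above. The 5 fat body markers summed to 13996 TPM in Muscles_Head, the highest of the 67 cell types, and 1224 TPM in Muscles_App, with a neuronal median of 1066 TPM. Photoreceptor markers summed to 3221 TPM in Muscles_Head and 207 TPM in Muscles_App. The part of these other cells in the muscle values was not tested.

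**Figure D3:**
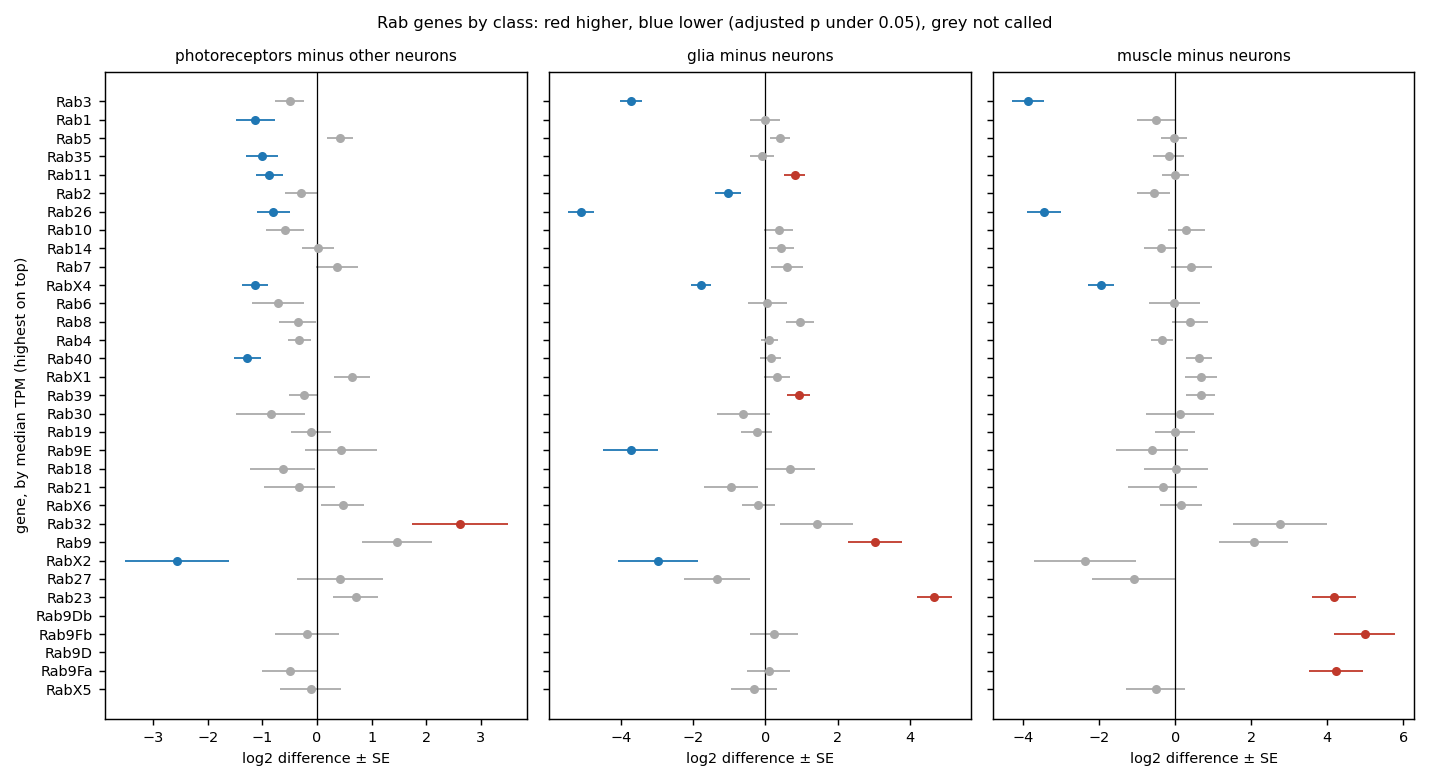
Log2 difference of each Rab gene tested (points, with SE) in photoreceptors, glia and muscle against the 58 other neuronal types, on the log2(TPM + 1) scale. Rab26 and Rab3 lie far to the left in glia and muscle, and RabX4 less far. Rab9E lies far to the left in glia. RabX2 lies to the left in each comparison but was not called in muscle. Rab23 lies far to the right in glia and muscle, and Rab9Fa and Rab9Fb to the right in muscle.

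Photoreceptors were compared with the 58 other neuronal types. Of 31 members tested, 1 was higher and 7 were lower, against 10.5% and 19% (29.6% in either direction) of 9976 genes tested. The share of members called, 25.8%, was near this background. The median over all genes was itself -0.41, and that of the members -0.32. The lower members included Rab1 of the early secretory route and Rab11 and Rab35 of the recycling route, whereas Rab2 (-0.29, adjusted p = 0.51), Rab6 (-0.72, adjusted p = 0.26) and Rab4 (-0.32, adjusted p = 0.24) of these routes were not called. Rab40, a member that recruits a ubiquitin ligase through its SOCS box, was at 31.6 ± 4.98 TPM in R1-6 (n = 4), 39.0 ± 28.0 TPM in R7, 84.4 ± 8.68 TPM in R8_Rh5 and 51.5 ± 15.3 TPM in R8_Rh6 (n = 2 each). The neuronal types ranged from 44.2 TPM (Lai) over a median of 117 TPM to 200 TPM (T1), and the log2 difference of Rab40 was -1.28 ± 0.25 (adjusted p = 4.7e-05).

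RabX4 had 71.1 to 105 TPM in photoreceptors and a neuronal median of 187 TPM (difference -1.14 ± 0.24, adjusted p = 0.00015). Rab1 had 140 to 232 TPM against 413 TPM (difference -1.13 ± 0.36, adjusted p = 0.013), Rab35 119 to 178 TPM against 307 TPM (2.01-fold lower on the TPM + 1 scale, adjusted p = 0.0059) and Rab11 105 to 211 TPM against 287 TPM (difference -0.87 ± 0.25, adjusted p = 0.0056). Rab26 (89.8 to 231 TPM, difference -0.80 ± 0.31, adjusted p = 0.043) and RabX2 (at 0 in R7 and R8_Rh6, difference -2.57 ± 0.95, adjusted p = 0.034) were closest to the threshold. All 7 overlapped the neuronal range. Rab26 was not called after quantile normalization (-0.46, adjusted p = 0.33).

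Rab32 was the only member called higher in photoreceptors. It was at 145 ± 42.4 TPM in R1-6 (n = 4), 119 ± 72.4 TPM in R7, 70.4 ± 5.38 TPM in R8_Rh5 and 71.7 ± 11.2 TPM in R8_Rh6 (n = 2 each), and the neuronal median was 13.1 TPM (difference 2.62 ± 0.88, adjusted p = 0.018). Of the neurons, Dm1, Tm20 and Dm3 exceeded R1-6. In R1-6, Rab32 was at 182 TPM with INTACT and 108 TPM with TAPIN (n = 2 each). The Tm1 input and first mock capture, given above, exceeded each photoreceptor mean of Rab32. The part of RNA from other cells in the photoreceptor level of Rab32 was not tested. Without R7 only Rab35, Rab40 and RabX4 were called, 3 members in all, and Rab32 had an adjusted p of 0.065. Rab35, Rab40 and RabX4 held in each of the 11 alternatives. Rab3 was not called (637 to 933 TPM in photoreceptors).

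**Figure D4:**
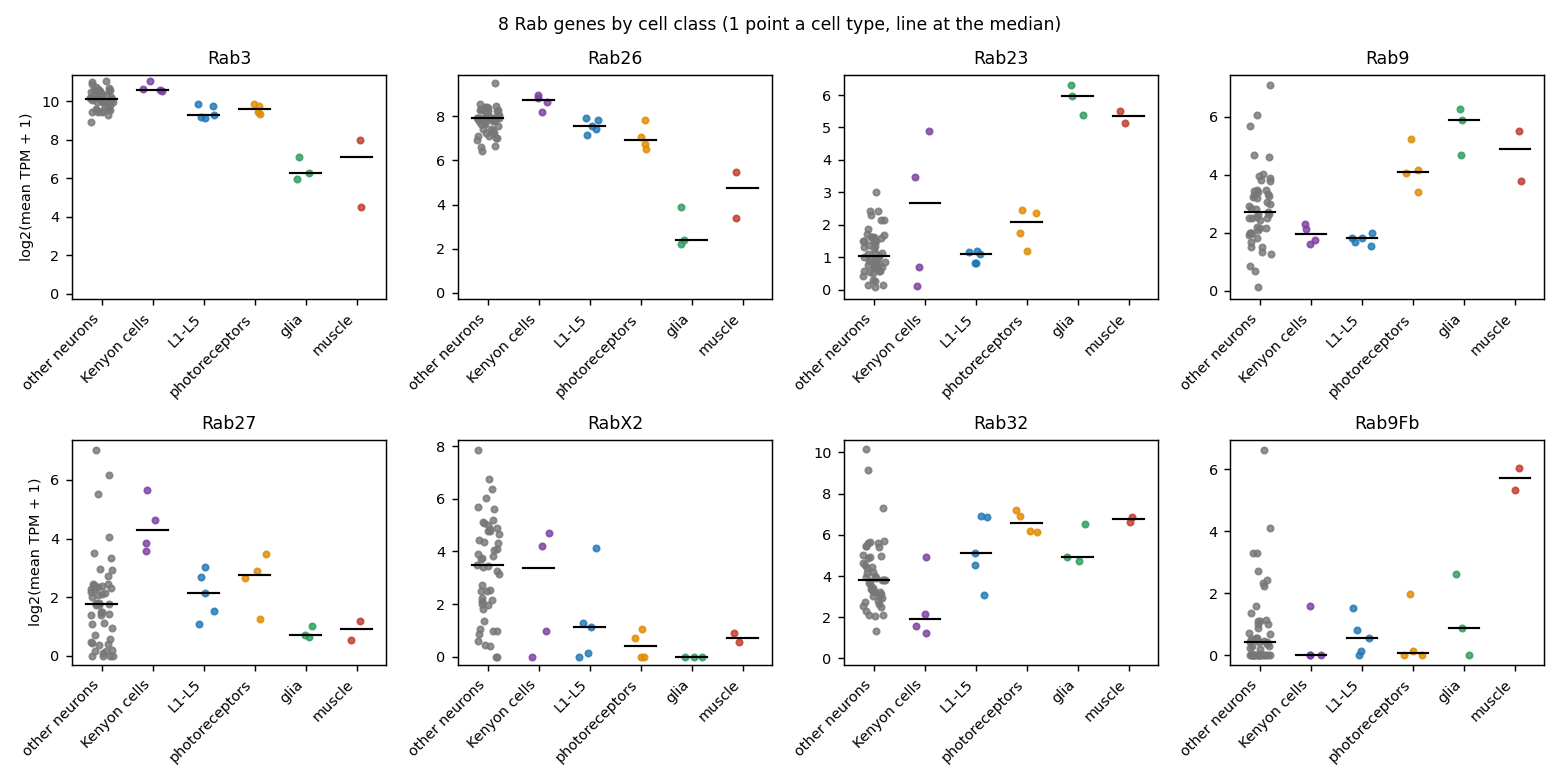
Log2(mean TPM + 1) of 8 Rab genes in each of the 67 cell types (1 point a cell type, line at the median of the class). Rab3, Rab26 and Rab23 separate glia and muscle from neurons. The highest point of Rab27 is Tm1, that of RabX2 is Lawf1, and the highest points of Rab32 are Dm1 and Tm20.

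Kenyon cells, the intrinsic neurons of the mushroom body, were compared with 54 other neuronal types. All Kenyon cell libraries were made with TAPIN, whereas L1 to L5 and further types among the 54 had INTACT libraries only. Of 31 members tested, 2 were higher and 1 lower, against 1.93% and 5.55% (7.49% in either direction) of 9775 genes, and the median over all genes was -0.53. Rab27 was at 13.3 ± 6.68 TPM in KC_ab_c, 49.9 ± 28.8 TPM in KC_ab_p, 24.0 ± 15.1 TPM in KC_ab_s (n = 2 each) and 11.02 ± 3.60 TPM in KC_gd (n = 4), with a median of 2.42 TPM in the other neurons (difference 2.56 ± 0.74, adjusted p = 0.023). Rab26 was at 291 to 503 TPM against 235 TPM (difference 0.89 ± 0.29, adjusted p = 0.045). Rab9E was at 0 to 19.7 TPM against 35.8 TPM (difference -2.27 ± 0.62, adjusted p = 0.016). The groups overlapped for these 3 members. No member was called by limma without KC_ab_c or without KC_ab_s (6 members in each at an unadjusted p under 0.05). Their removal left 154 and 120 of all genes called instead of 732. With TAPIN libraries only, 1 member was called. The share of all genes at an unadjusted p was not determined, here or in the comparisons below.

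L1 to L5 were compared with 53 other neuronal types. Of 31 members tested, 4 were higher and 1 lower, against 19.4% and 4.8% (24.2% in either direction) of 9775 genes, so that the share of members called, 16.1%, was below the background, and the median over all genes was 0.46. Rab18, which acts at lipid droplets and the endoplasmic reticulum in mammals, was at 75.6 ± 14.9 TPM in L1 (n = 4), 90.3 ± 19.5 TPM in L2, 106 ± 11.3 TPM in L3, 89.6 ± 7.98 TPM in L4 and 114 ± 8.90 TPM in L5 (n = 2 each), with a median of 32.4 TPM elsewhere (difference 1.68 ± 0.51, adjusted p = 0.020). RabX6 (29.8 to 45.4 TPM against 20.3 TPM, difference 1.10 ± 0.34, adjusted p = 0.021), Rab19 (64.7 to 141 TPM against 50.5 TPM, difference 0.92 ± 0.32, adjusted p = 0.035) and Rab7 (232 to 356 TPM against 168 TPM, difference 0.91 ± 0.34, adjusted p = 0.042) were higher as well. Rab3 was lower, at 560 to 939 TPM against 1131 TPM (difference -0.70 ± 0.22, adjusted p = 0.024).

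All L1 to L5 libraries were made with INTACT. Against the 13 other neuronal types that had INTACT libraries, no member was called by limma (2 at an unadjusted p under 0.05), and 57 genes were called over the whole table. The differences of these 5 members then ranged from -0.25 for Rab3 to 0.32 for RabX6. No member was called without L2 (7 at an unadjusted p under 0.05, and 518 genes called over the whole table), 1 without L3, 2 without L4 or L5 and 3 without L1.

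The protocols were compared directly in R1-6, Lawf1 and Dm12, the 3 cell types with passing libraries of both (6 INTACT and 5 TAPIN libraries, cell type as covariate). In Lawf1 the protocols used different drivers. Of 26 members tested, 5 were higher and 1 lower with INTACT, against 14.8% and 2.09% (16.9% in either direction) of 8696 genes, and the median over all genes was 0.53. Rab3 was lower with INTACT in each cell type. It was at 515 ± 43.4 against 759 ± 43.0 TPM in R1-6, 870 ± 31.5 against 1999 ± 138 TPM in Lawf1 and 1012 ± 9.84 (n = 2) against 2342 TPM (1 library) in Dm12, with a difference of -0.96 ± 0.14 (adjusted p = 0.0031). Rab18 (difference 1.17 ± 0.24, adjusted p = 0.011), Rab32 (1.13 ± 0.30, adjusted p = 0.028), Rab8 (0.73 ± 0.20, adjusted p = 0.030), Rab7 (0.63 ± 0.17, adjusted p = 0.032) and Rab35 (0.58 ± 0.18, adjusted p = 0.044) were higher. After quantile normalization only Rab3 was called. Leaving out any 1 library of Lawf1 or Dm12 left 2 or 3 members called, and leaving out any 1 of R1-6 left 6.

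T4 and T5, the direction-selective neurons of the ON and OFF motion pathways, were compared by their libraries (4 each, 2 drivers each). Of 25 members tested, 3 were higher in T4 and 0 lower, against 0.787% and 0.944% (1.73% in either direction) of 7624 genes. At an unadjusted p under 0.05, 11 members differed. The share of all genes at that threshold was not determined, so the shares above do not apply to it. Rab26 was at 271, 329, 353 and 375 TPM in the T4 libraries and 122, 137, 140 and 157 TPM in the T5 libraries (difference 1.25 ± 0.19, adjusted p = 0.0063). Rab11 was at 204, 207, 219 and 241 TPM against 106, 108, 111 and 143 TPM (difference 0.90 ± 0.20, adjusted p = 0.0498). Rab3 was at 1499, 1502, 1535 and 1667 TPM against 901, 1039, 1056 and 1067 TPM (difference 0.61 ± 0.13, adjusted p = 0.041). In these 3 genes each T4 library exceeded each T5 library.

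Rab1 (416 against 215 TPM on average), Rab6 (440 against 182 TPM) and RabX4 (252 against 162 TPM) were also higher in each T4 library than in any T5 library. Rab32 (11.5 against 42.0 TPM) was lower in each T4 library. None of these 4 was called. The share of all genes whose T4 and T5 libraries separate fully was not determined, so these orders are descriptions only. Rab26 was called after each removal of 1 library and was then the only member called, except that 4 were called without replicate 1 of the T5 driver d1. With driver means as units, 2 against 2, no member was called by limma (10 at an unadjusted p under 0.05, adjusted p = 0.055 for Rab26). The drivers also favor different subtypes of T4 and of T5, and those of T5 weakly label some T4 cells. The summed level of 5 fat body markers was 2305 TPM in T4 and 9604 TPM in T5. The part of other cells in these differences was not tested. The libraries are separate samples by their labels, so these p-values measure the spread between libraries of 2 drivers each.

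**Figure D5:**
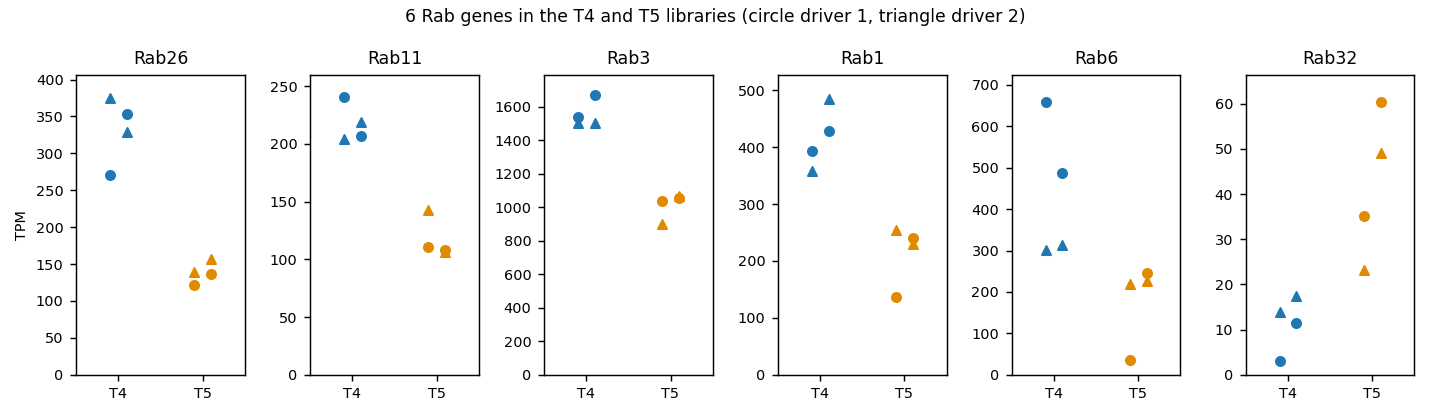
Level in TPM of 6 Rab genes in each of the 4 T4 and 4 T5 libraries (circles driver d1, triangles driver d2). Each T4 point of Rab26, Rab11, Rab3, Rab1 and Rab6 lies above each T5 point, and each T4 point of Rab32 below.

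Genes that act on Rab proteins were read from 3 lists, and no test of a list as a whole was run. Their counts stand against shares of all genes called higher and lower of 12.2% and 12.8% in glia, 14.5% and 8.11% in muscle, 10.5% and 19% in photoreceptors, 1.93% and 5.55% in Kenyon cells and 19.4% and 4.8% in L1 to L5. In either direction these shares are 24.9%, 22.6%, 29.6%, 7.49% and 24.2%. Of 15 measured genes for activation, recycling and prenylation, 3 were higher and 1 lower in glia, 4 and 1 in muscle, 3 and 1 in photoreceptors, 0 and 2 in Kenyon cells and 4 and 0 in L1 to L5. The exchange factor Rab3-GEF was lower in glia (-4.77 on the log2 scale) and in muscle (-4.02). The Rab5 exchange factor spri was higher in glia (2.74), muscle (2.94) and photoreceptors (1.89), where Gdi, which extracts Rab proteins from membranes, was lower (-1.04). Kenyon cells were lower in Rich (-1.11) and CG18659 (-0.97). L1 to L5 were higher in betaggt-II (2.03), a subunit of the Rab prenylating enzyme, and in the Rab5 exchange factor Rabex-5 (1.504). All L1 to L5 libraries were made with INTACT, and betaggt-II was also higher with INTACT in the protocol comparison. The glial, muscle and Kenyon cell libraries were all made with TAPIN. The part of protocol in the values of the 3 lists was not tested. Median differences of this list were 0.05 in glia, 0.09 in muscle, 0.20 in photoreceptors, -0.58 in Kenyon cells and 0.53 in L1 to L5.

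Against the same shares of all genes, of 10 measured Rab GAPs 2 were higher and 2 lower in glia, 1 and 1 in muscle, 0 and 1 in photoreceptors, 0 and 1 in Kenyon cells and 3 and 1 in L1 to L5. The GAP wkd was higher in glia (2.69) and muscle (1.77), and TBC1D16 was lower in both (-2.68 and -3.32) and higher in L1 to L5 (1.33). Evi5 was lower in photoreceptors (-1.01), and GAPcenA was lower in Kenyon cells (-1.52) and higher in L1 to L5 (1.29). Of 13 measured effectors, read against those shares as well, 2 were higher and 4 lower in glia, 3 and 2 in muscle, 5 and 0 in photoreceptors, 1 and 0 in Kenyon cells and 3 and 4 in L1 to L5. Rim, the active zone scaffold that binds Rab3, was lower in glia (-4.11) and muscle (-3.96). The Rab11 effector nuf was higher in glia (5.11) and photoreceptors (2.91) and lower in L1 to L5 (-2.09). The synaptotagmin-like protein btsz was higher in photoreceptors (3.47), muscle (3.96) and Kenyon cells (3.72) and lower in L1 to L5 (-3.17) and in T4 against T5 (-1.08), the only gene of the 3 lists called there. In the protocol comparison betaggt-II was higher (1.75) and Rim lower (-0.55) with INTACT. All of these had an adjusted p under 0.05 in limma. Median differences of the GAPs were 0.30, -0.25, -0.28, -0.56 and 0.61, and of the effectors -0.46, -0.02, 0.34, -0.41 and 0.02, in glia, muscle, photoreceptors, Kenyon cells and L1 to L5.

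Of the members with several transcripts, Rab2 and Rab11 are given as examples chosen after their values were seen. The Rab2 transcript FBtr0336658 made up a mean of 59.95% of the Rab2 level in photoreceptors, 38.1% in glia, 48.8% in muscle and a median of 32.7% in the 58 other neuronal types. For Rab11, FBtr0084011 made up 82.6% in photoreceptors, 91.04% in glia, 90.7% in muscle and 87.5% in the median neuron. No test was run on these shares.

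All 33 gene identifiers were found in the annotation, 13 members on chromosome X and 5 on each of 2L, 2R, 3L and 3R. Exons of 7 members overlap exons of another gene, Rab1, Rab4, Rab14, Rab19, Rab26 and RabX6 on the opposite strand and RabX4 on the same strand. The levels of these 7 are uncertain to that extent.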

How the data were processed

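The authors sequenced the libraries by Illumina after Nugen Ovation amplification, trimmed reads, and estimated abundance with kallisto (0.43.1). The deposited TPM values are restricted to coding genes and rescaled to a common total. Genome build was dm6, per the labels. The deposited probabilities of the on state come from the authors' log-normal mixture model. Other deposited values used are the natural log levels of its components, shown as TPM. Here means of log2(TPM + 1) were compared with limma (3.58.1) in R (4.3.3), lmFit and eBayes with trend, two-sided, with Benjamini-Hochberg adjustment. Genes needed at least 10 TPM in at least 2 values. In the 51 cell types compared, own means matched the deposited means within 0.005 TPM. The tests were run on simulated data. A log2 difference of 1 was recovered for 1% of changed genes (protocols) to 34% (L1 to L5). A difference of 2 was recovered for 27% (protocols) to 82% (L1 to L5). False calls made up 2.8% (glia) to 9.7% (protocols) of the calls. The text names every member, those called or on in fewer than 60 cell types in more detail, the 3 genes most like each of the 3 most variable members, and from each list the 2 called genes with the largest differences. Members and lists were chosen with earlier results of these data known. Coordinates are from Ensembl release 115, on the same assembly. The 47 sub-optimal, 16 control and 8 dissected libraries entered no test. Alternatives were pseudocounts of 0.1 and 5, no filter, quantile normalization, libraries as units, 1 protocol, and units left out.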

Additional observations from a re-analysis of the deposited data

Results flagged for a closer look

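The effect of protocol was tested for a difference between R1-6 and Lawf1 (limma interaction term, 2 libraries a protocol in each). It differed for 8 of 26 members tested, against 26.4% of 8425 genes, and the protocols used different drivers in Lawf1. The effect (INTACT minus TAPIN, log2) in R1-6 minus that in Lawf1 was -1.07 for Rab1, -1.05 for Rab8, -0.95 for Rab6, -0.92 for Rab7, -0.88 for Rab14 and -0.70 for Rab35. It was 0.83 for Rab26 and 0.64 for Rab3, whose effect was -1.20 in Lawf1 and -0.56 in R1-6. Rab1 was at 628 ± 2.35 TPM with INTACT and 281 ± 19.8 TPM with TAPIN in Lawf1, and at 181 ± 7.07 and 171 ± 17.2 TPM in R1-6.

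Among 22 groups of 4 or more values examined, 1 held a value far from the others, where chance flags about 1 group in 20. It was Rab11 in the first library of the T5 driver d2, at 143 TPM, with the other T5 libraries at 106 to 111 TPM. Without this library 1 member, Rab26, was called between T4 and T5.

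Libraries that failed quality control entered no comparison. Means of 2 such libraries exceeded every passing cell type and every control library for Rab11 in lLNv (999.6 TPM, from 97.9 and 1901 TPM) and CCAP (852 TPM, from 21.4 and 1683 TPM), for Rab27 in Dsk (166 TPM, from 25.1 and 307 TPM) and for RabX4 in Ilp2 (404.0 TPM, from 280 and 528 TPM). The libraries of each pair differed widely, and these are values without a test.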

How the results depend on the processing

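The number of members called moved by more than 1.5 times in these settings. Kenyon cells had 1 called with TAPIN libraries only instead of 3. L1 to L5 had 3 after quantile normalization and 0 with INTACT libraries only, instead of 5. T4 against T5 had 1 with the replicate block and 0 with driver means, instead of 3 (the block fit is a hint only, since the samples share no more than a number, and 2 of 4 T4 libraries correlated best with their own number). The protocols had 3 without the filter and 1 after quantile normalization, instead of 6. Leaving out 1 unit at a time gave 3 to 7 members in photoreceptors, 6 to 7 in glia, 6 in muscle, 0 to 3 in Kenyon cells, 0 to 3 in L1 to L5, 1 to 4 in T4 against T5 and 2 to 6 between the protocols. Of the values of called members under alternatives, 345 stayed past the threshold, 122 did not and 0 reversed. The members on in at least 60 cell types numbered 13 at probabilities of 0.9 and 0.1, 16 at 0.5 and 20 at a limit of 10 TPM, instead of 14. The replicate numbers of T4 and T5 did not pair the libraries (correlations of same-numbered deviations -0.09 to 0.10). Depth was not known in this unit, so zeros carry no limit. With 2 to 5 units in the smaller group, a missed threshold does not show that levels were alike.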

Other observations

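Dissected lamina and optic lobe, as total RNA (4 libraries each), were described apart from the purified nuclei. Rab3 was at 418 ± 54.9 TPM in lamina and 913 ± 23.1 TPM in the optic lobe without lamina, Rab26 at 80.8 ± 10.7 and 168 ± 5.46 TPM, and Rab27 at 4.97 ± 2.91 and 22.9 ± 4.82 TPM. In the other direction, Rab32 was at 71.1 ± 14.5 TPM in lamina and 7.51 ± 0.69 TPM in the optic lobe, and Rab23 at 16.5 ± 7.32 and 2.15 ± 0.67 TPM. These values were not tested against each other or against the nuclei, since the RNA fraction differs.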
